A study of Mus musculus with 31 samples.

Results

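The genes described here encode the activin and inhibin subunits, their antagonists and receptors, and the anti-Müllerian hormone pair: Inhba, Inhbb, Inha, Fst, Fstl3, Acvr1b, Acvr2a, Acvr2b, Amh and Amhr2. They are 10 of the 18193 genes that single-gene probe sets of the array name, and 19 of its 34945 probe sets with 1 gene symbol carry one of these names. For a gene with several probe sets, values are those of the probe set that was brightest on average across the 31 arrays. Activins are dimers of beta subunits, encoded by Inhba and Inhbb, that bind the type II receptors ACVR2A and ACVR2B, which recruit the type I receptor ACVR1B and signal through SMAD2 and SMAD3. Inhibins pair a beta subunit with the alpha subunit encoded by Inha and occupy the type II receptors without signalling, while follistatin, encoded by Fst, and the related protein of Fstl3 trap activins outside the cell. AMH, a hormone of fetal Sertoli cells that makes the Müllerian ducts regress, signals through its own type II receptor AMHR2 and through BMP type I receptors, and Fst is a known marker of the fetal mouse ovary.

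The values come from single-colour arrays hybridised with RNA from fetal mouse gonads at embryonic day 14.5, freed from the mesonephros, with 1 pair of gonads per array. All embryos carried Sf1-cre, a transgene whose Cre acts in somatic cells of the gonad and also in other SF1-expressing tissue such as the adrenal cortex. In double knockout (DKO) gonads both alleles of Ctnnb1, which encodes beta-catenin of the WNT pathway, and of Sox9, which encodes the factor that drives Sertoli cell differentiation, were floxed. Sox9KO gonads had 2 floxed Sox9 alleles and 1 floxed Ctnnb1 allele, and Ctnnb1KO gonads had 2 floxed Ctnnb1 alleles and 1 floxed Sox9 allele. Control (Ctr) gonads also carried the Cre and 1 floxed allele of each gene, so no group is wild type, and Ctr cells with Cre activity are heterozygous for both genes. Each genotype was collected from XY and XX embryos, which gives 8 groups of 4 arrays, except XY DKO with 3. The comparisons address how gonads differentiate when SOX9, beta-catenin or both are missing.

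Deposited signals were linear and scaled to a trimmed mean of 500.0 on every array, with array medians of 120.6 to 168.8. Sox9 signal was 8.6 to 34.9 in XY DKO and 7.1 to 41.7 in XY Sox9KO gonads, against 839.7 to 1025 in XY Ctr gonads. Ctnnb1 signal was 11002 to 14177 over all arrays. The place of its probes relative to the deletion is unknown here, and the gene therefore checks no label. Y-linked Eif2s3y and X-linked Xist matched the labels on all arrays but 1: replicate 4 of XX Ctnnb1KO had neither transcript, with an Xist signal of 51.1. Called differences of Inhba, Inha, Inhbb and Fst that use the XX Ctnnb1KO group are given with and without this array. The count of called genes in XX DKO over XX Ctnnb1KO is also given both ways. Other values of the XX Ctnnb1KO group, among them uncalled differences and all lists of pathway genes and markers, include this array. Tissue is bulk, so fewer cells of a type and less RNA per cell cannot be told apart.

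Differences below are log2 differences of signal + 16 from 1 limma fit of the 8 group means, with standard errors (SE), and p-values are adjusted by the Benjamini-Hochberg method over the 11777 genes tested. These were genes above their array's median on at least 3 arrays, and a difference counts as called below an adjusted p of 0.05. All 10 genes passed that filter. The added 16 shrinks differences of dim genes, so a fold value understates the change where signals are low. Levels of a gene are compared between groups for 1 probe set at a time and never between genes. Sums of marker lists add the signals of several genes, so that bright genes weigh most in them.

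The genes fell into 3 patterns over the 8 groups. Inhba, Inha and Inhbb were high in XY Ctr and XY Ctnnb1KO gonads, low in XX Ctr, XX Sox9KO and XY Sox9KO gonads, and in between or high wherever Ctnnb1 was lost, while Fst ran the other way. Amh was high only where Sox9 was present in XY gonads, and Amhr2 had its highest mean in XY Sox9KO gonads. The 3 activin receptor genes and Fstl3 followed none of these patterns and had few called differences. Acvr1b was called in XY Ctr over XX Ctr gonads only. Fstl3 was called lower in XY DKO than in XX DKO and XY Ctnnb1KO gonads, and both calls were lost in some other settings.

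**Figure D1:**
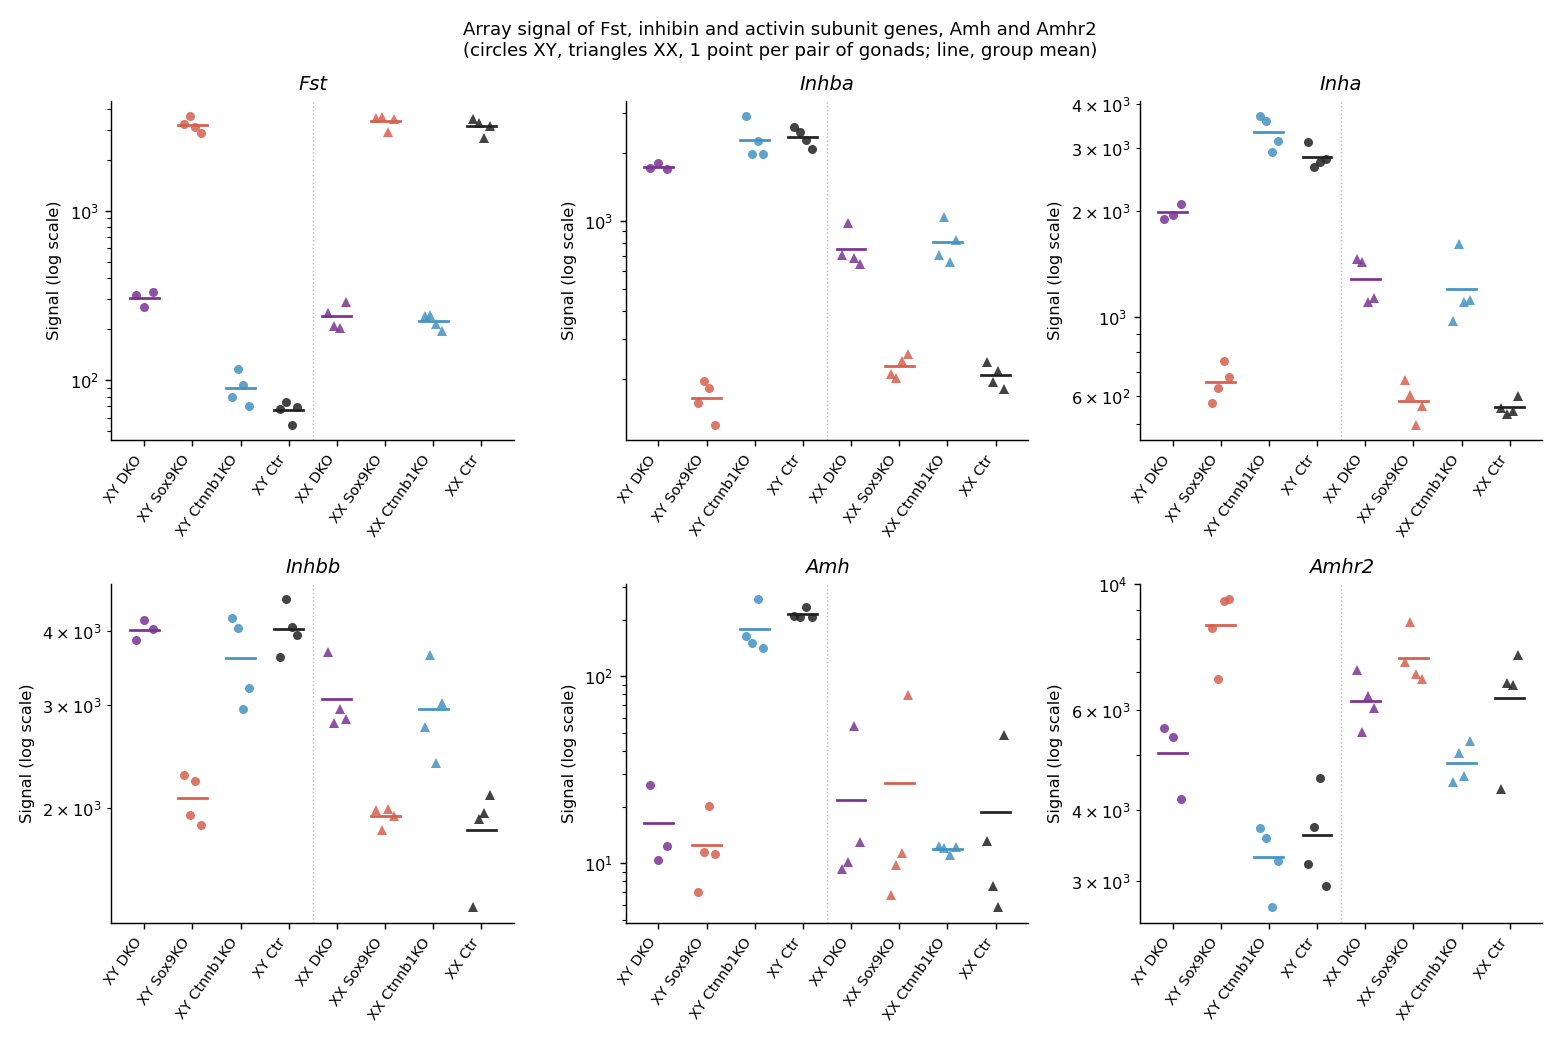
Signal of Fst, Inhba, Inha, Inhbb, Amh and Amhr2 on each array (vertical axes, log scale, arbitrary linear signal units of the deposited table), by group on the horizontal axis, XY groups left of XX groups. Each point is 1 pair of gonads and each line a group mean; XY DKO gonads have Inhba at 1695 to 1806 and Amh at 10.4 to 26.2, against 2080.5 to 2614 and 206.5 to 234 in XY Ctr gonads.

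Promoter sequences from RefSeq, assembly GRCm38.p6, were found for 8 of the 10 genes, without Fst and Amh. Each holds 250 bases before and 50 bases after the annotated start. The windows of the subunit genes, which moved together over the groups, and of Amhr2, which largely moved against them, are shown. They run in the direction of the gene, with motif matches in capitals.
Inha, chr1:75507359-75507658, + strand: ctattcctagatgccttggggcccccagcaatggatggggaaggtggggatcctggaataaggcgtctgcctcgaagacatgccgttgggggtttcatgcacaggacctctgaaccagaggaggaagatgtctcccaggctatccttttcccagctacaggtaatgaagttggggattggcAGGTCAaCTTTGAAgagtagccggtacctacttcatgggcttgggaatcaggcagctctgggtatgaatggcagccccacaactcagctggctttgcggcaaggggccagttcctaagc
Inhba, chr13:16011601-16011900, + strand: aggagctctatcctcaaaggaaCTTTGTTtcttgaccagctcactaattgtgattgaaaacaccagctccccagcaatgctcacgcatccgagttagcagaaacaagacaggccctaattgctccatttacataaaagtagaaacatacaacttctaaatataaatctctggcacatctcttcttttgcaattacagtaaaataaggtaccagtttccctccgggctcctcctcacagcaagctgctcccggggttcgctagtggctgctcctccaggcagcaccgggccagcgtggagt
Inhbb, chr1:119422199-119422498, - strand: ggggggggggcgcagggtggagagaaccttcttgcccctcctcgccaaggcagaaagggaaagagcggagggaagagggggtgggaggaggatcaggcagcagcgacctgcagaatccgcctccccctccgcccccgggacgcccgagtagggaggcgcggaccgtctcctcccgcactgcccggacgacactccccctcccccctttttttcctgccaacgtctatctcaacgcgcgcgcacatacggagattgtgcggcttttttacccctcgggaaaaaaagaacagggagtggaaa
Amhr2, chr15:102445117-102445416, + strand: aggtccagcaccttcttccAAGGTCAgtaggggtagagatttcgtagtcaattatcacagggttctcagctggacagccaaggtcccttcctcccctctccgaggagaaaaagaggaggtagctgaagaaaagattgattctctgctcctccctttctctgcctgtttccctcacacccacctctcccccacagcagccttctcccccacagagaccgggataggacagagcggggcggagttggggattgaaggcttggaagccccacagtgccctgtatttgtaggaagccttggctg
The letters searched on both strands were AGGTCA, a nuclear receptor element, AAGGTCA, the NR5A1 (SF1) core that contains it, CTTTGAA and CTTTGAT for TCF/LEF factors, and AACAAT and AACAAAG for SOX factors. Inha holds AGGTCA at -69 and CTTTGAA at -62 from the start, so that 1 base separates them. Inhba holds AACAAAG on the opposite strand, its first base at -228, and Amhr2 holds AAGGTCA at -231. None of these letters occur in the Inhbb window. Among the windows not shown, that of Fstl3 holds AGGTCA on the opposite strand, its first base at -200. Those of Acvr1b, Acvr2a and Acvr2b hold no match. Over 32851 promoters of the same length, AGGTCA is found in 16.3%, AAGGTCA in 4.72%, CTTTGAA in 5.14%, CTTTGAT in 3.73%, AACAAT in 10.7% and AACAAAG in 5.85%. A match of so few letters is a description of the sequence and not a binding site.

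Inhba, which encodes the beta A subunit of activin A and inhibin A, had signals of 1721, 1806 and 1695 in XY DKO gonads and 157, 196, 182 and 125.5 in XY Sox9KO gonads. It had 2913, 1982, 2272 and 1986.5 in XY Ctnnb1KO gonads and 2614, 2490.4, 2289.9 and 2080.5 in XY Ctr gonads. In XY gonads the 4 Sox9KO arrays thus lay far below all others, and the DKO arrays lay just below the lowest Ctr array. The XX DKO arrays read 708, 979, 688 and 649, and the XX Sox9KO arrays 211, 201, 239 and 259. The XX Ctnnb1KO arrays read 709, 1040.0, 662 and 828, against 238, 194.5, 217 and 180.3 on XX Ctr arrays. Every XX array without Ctnnb1 was above every XX array with it, and below every XY DKO array.

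Inhba fell in XY Sox9KO relative to XY Ctr gonads by a log2 difference of -3.73 ± 0.15 (SE, 4 against 4 arrays; adjusted p = 7.85e-19), a 13.3-fold lower value. It rose in XY DKO relative to XY Sox9KO gonads by 3.29 ± 0.16 (3 against 4 arrays; adjusted p = 5.95e-16). The remaining difference of XY DKO from XY Ctr gonads, -0.44 ± 0.16, was not called (adjusted p = 0.0538). It was called with quantile normalization (adjusted p = 0.0332) and in 3 other settings. In XX gonads Inhba rose in Ctnnb1KO relative to Ctr by 1.87 ± 0.15 and in DKO relative to Sox9KO by 1.65 ± 0.15 (adjusted p = 8.06e-11 and 7.3e-10). The only other Inhba probe set read a group mean of at most 22.1 and did not pass the filter, so 1 probe set carries these values.

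Inha, which encodes the inhibin alpha subunit, had signals of 1896, 1945 and 2095 in XY DKO gonads and 573, 631, 754 and 679.5 in XY Sox9KO gonads. Those in XY Ctnnb1KO gonads were 3699, 3577, 2932 and 3153, and those in XY Ctr gonads 3129.7, 2657, 2741 and 2798. The DKO arrays lay between Sox9KO and Ctr, with no overlap on either side. In XX gonads Inha read 1465, 1433, 1107 and 1135 in DKO and 664, 603, 498 and 563.5 in Sox9KO. It read 974, 1612, 1107 and 1121 in XX Ctnnb1KO, against 556, 532, 545 and 602 in XX Ctr gonads. The groups without Ctnnb1 again lay above those with it.

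Inha fell in XY Sox9KO relative to XY Ctr gonads with a log2 difference of -2.08 ± 0.12 and in XY DKO relative to XY Ctr gonads with a log2 difference of -0.51 ± 0.13 (limma adjusted p = 1.02e-14 and 0.00583). Between XY DKO and XY Sox9KO gonads it was higher in DKO by 1.57 ± 0.13. In XX gonads it rose by 1.06 ± 0.12 in Ctnnb1KO relative to Ctr and by 1.12 ± 0.12 in DKO relative to Sox9KO (adjusted p = 1.34e-07 and 4.05e-08). Inha has a single probe set.

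Inhbb, which encodes the beta B subunit of activin B and inhibin B, moved in the same direction over a smaller range. Signals were 3868, 4174 and 4033 in XY DKO gonads and 2279, 1945, 2222 and 1871 in XY Sox9KO gonads. They were 4214, 4058, 2954 and 3205.5 in XY Ctnnb1KO gonads and 3611, 4539, 4069 and 3947 in XY Ctr gonads. The XY DKO arrays fell inside the XY Ctr range, and all Sox9KO arrays lay below it. XX DKO arrays read 3684, 2797, 2949 and 2831 and XX Sox9KO arrays 1987, 1839, 1991 and 1936. XX Ctnnb1KO arrays read 2745, 3646, 2384 and 3015, against 1355, 1919, 1963 and 2103 on XX Ctr arrays. All XX arrays without Ctnnb1 were above all XX arrays with it.

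The Inhbb difference of XY DKO from XY Ctr gonads was -0.00171 ± 0.14, with a 95% interval of -0.28 to 0.28. Inhbb fell in XY Sox9KO relative to XY Ctr gonads with a log2 difference of -0.95 ± 0.13 and was higher in XY DKO than in XY Sox9KO gonads by 0.95 ± 0.14 (limma adjusted p = 4.7e-07 and 4.53e-06). It rose in XX Ctnnb1KO relative to XX Ctr gonads by 0.68 ± 0.13 and in XX DKO relative to XX Sox9KO gonads by 0.65 ± 0.13 (adjusted p = 0.000303 and 0.000474). A dimmer second probe set of Inhbb, with group means of 136.9 to 241.2, also read lower in XY Sox9KO than in XY Ctr gonads, with a log2 difference of -0.55 (adjusted p = 0.0195). For that probe set the XX differences were 0.50 (adjusted p = 0.0971) and 0.17 (adjusted p = 0.604), neither of them called.

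Fst, the follistatin gene, spanned the widest range of the antagonists. Its signals were 319, 270.1 and 331 in XY DKO gonads and 3243, 3608, 3121 and 2866 in XY Sox9KO gonads. They were 79.2, 116, 93.5 and 70.5 in XY Ctnnb1KO gonads and 67.5, 74.3, 54.6 and 69.0 in XY Ctr gonads. Sox9KO stood far above every other XY group, and all 3 DKO arrays were above every Ctnnb1KO and Ctr array. XX DKO gonads had 249.7, 208, 203 and 289 and XX Sox9KO gonads 3529, 3586, 2927 and 3468. XX Ctnnb1KO gonads had 240.2, 242.5, 213 and 194, against 3456, 3269.9, 2696 and 3144 in XX Ctr gonads. XX groups thus formed a high pair with Ctnnb1 and a low pair without it.

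In XY Sox9KO gonads Fst rose by 5.29 ± 0.13 relative to XY Ctr gonads, a 39.2-fold difference on the log2(signal + 16) scale (limma adjusted p = 2.93e-24). The group mean of XY Sox9KO was 102.0% of that of XX Ctr, and the difference between them, 0.03 ± 0.13, had a 95% interval of -0.23 to 0.29. In XY DKO gonads Fst rose by 1.97 ± 0.14 relative to XY Ctr (adjusted p = 3.52e-12), to 9.76% of the XX Ctr mean, against 2.11% for the XY Ctr mean. Fst fell in XX Ctnnb1KO relative to XX Ctr gonads with a log2 difference of -3.73 ± 0.13, to 7.08% of the XX Ctr mean (adjusted p = 1.54e-19). In XX DKO relative to XX Sox9KO gonads it fell with a log2 difference of -3.75 ± 0.13 (adjusted p = 1.27e-19), and in XY DKO relative to XY Sox9KO gonads with a log2 difference of -3.32 ± 0.14 (adjusted p = 1.23e-17). Fst of XX gonads without Ctnnb1 stayed above that of XY Ctr gonads on every array. The second Fst probe set gave 4.99 for XY Sox9KO over XY Ctr and -3.64 for XX Ctnnb1KO over XX Ctr.

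In descending order of Fst group means, XX Sox9KO, XY Sox9KO and XX Ctr came first with overlapping arrays, followed without overlap by XY DKO, XX DKO and XX Ctnnb1KO, and then by XY Ctnnb1KO and XY Ctr. For Inhba the order was XY Ctr and XY Ctnnb1KO, which overlapped, XY DKO, which overlapped with no group, XX Ctnnb1KO and XX DKO, and lastly XX Sox9KO, XX Ctr and XY Sox9KO. The order of Inha began with XY Ctnnb1KO and XY Ctr, with XY DKO next and apart from both neighbours, then XX DKO and XX Ctnnb1KO, and at the bottom XY Sox9KO, XX Sox9KO and XX Ctr.

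Fstl3, whose product also binds activins, read 71.2, 134 and 107.5 in XY DKO and 119.9, 148, 99.2 and 153 in XY Sox9KO gonads. It read 257, 129.8, 139 and 184 in XY Ctnnb1KO and 182, 134, 120.2 and 123 in XY Ctr gonads. In XX gonads its values were 142 to 251 in DKO, 103 to 181 in Sox9KO, 161 to 200.1 in Ctnnb1KO and 101 to 182 in Ctr. These signals lie around the array median, and neighbouring groups overlapped. The Fstl3 difference of XY DKO from XX DKO gonads, -0.80 ± 0.23, was called at an adjusted p of 0.0395 and that of XY DKO from XY Ctnnb1KO gonads, -0.68 ± 0.23, at 0.049. These calls held in 8 and 7 of 16 alternatives. Both were lost with quantile normalization (adjusted p = 0.0606 and 0.104) and without XY DKO replicate 2 (adjusted p = 0.186 and 0.285).

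The receptor genes were measured well above the array median in every group. Acvr1b, the activin type I receptor, had group means between 1043 ± 159.7 in XY Sox9KO and 788 ± 41.2 in XX Ctr gonads (SD, n = 4 each). Its values were 1007, 1078, 1041 and 988 in XY Ctr gonads, against 759, 828.5, 746 and 818 in XX Ctr gonads. These did not overlap, and the difference of 0.38 ± 0.11 was called (limma adjusted p = 0.00488). No other comparison called Acvr1b.

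Acvr2a, a type II receptor for activins, had group means between 2105.5 ± 177 in XY DKO gonads (SD, n = 3) and 1763 ± 116.5 in XY Ctnnb1KO gonads (SD, n = 4). Acvr2b, the other type II receptor, ran from 549.5 ± 46.2 in XX Ctnnb1KO to 422.5 ± 46.4 in XY Ctr gonads (SD, n = 4 each). Neither gene was called in any comparison with these probe sets. For Acvr2a the 95% interval of XY Sox9KO over XY Ctr was 0.01 to 0.38, and for Acvr2b it was -0.10 to 0.45. The second Acvr2b probe set, dimmer but above the filter, called the same comparison at 0.40 (adjusted p = 0.0216), while the 3rd, which was not called, had the opposite sign, at -0.36. Acvr2b was lower in XY Ctr than in XX Ctr gonads with a log2 difference of -0.32 ± 0.13, which was not called (adjusted p = 0.0584). Without XX Ctr replicate 1, the lowest XX Ctr array, it was (-0.46; adjusted p = 0.00636).

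**Figure D2:**
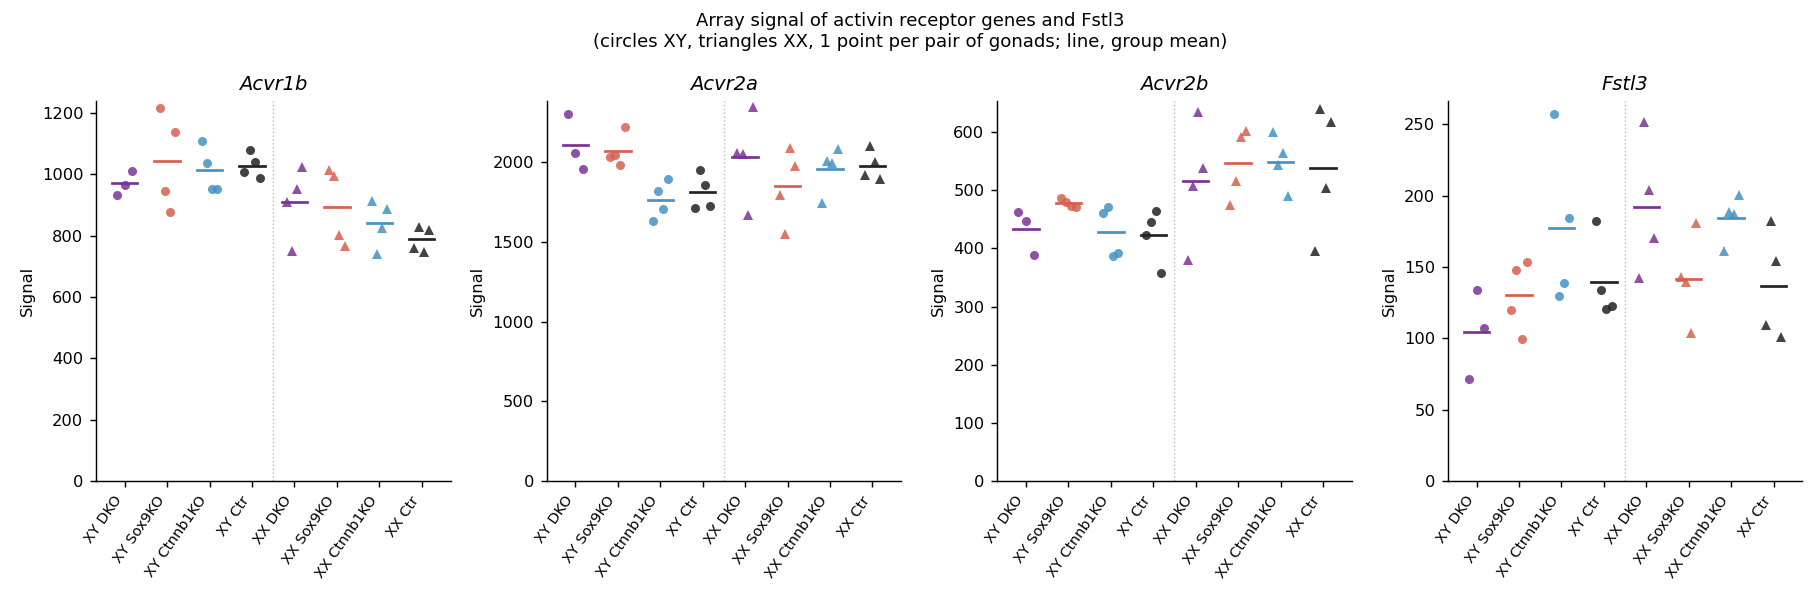
Signal of Acvr1b, Acvr2a, Acvr2b and Fstl3 on each array (vertical axes from 0, arbitrary linear signal units), by group on the horizontal axis, XY groups left of XX groups. Points are pairs of gonads and lines group means; XY Ctr arrays for Acvr1b, at 988 to 1078, lie above XX Ctr arrays, at 746 to 828.5, and most other neighbouring groups overlap.

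Amh had signals of 26.2, 10.4 and 12.4 in XY DKO gonads and 7.0, 11.5, 20.2 and 11.2 in XY Sox9KO gonads. They were 165, 150.4, 259 and 142 in XY Ctnnb1KO gonads and 211, 207, 234 and 206.5 in XY Ctr gonads. In XX gonads Amh lay at 9.3 to 54.4 in DKO, 6.8 to 79.3 in Sox9KO, 11.0 to 12.3 in Ctnnb1KO and 5.8 to 48.3 in Ctr. Every XY array with Sox9 was above every other array. The single Amh probe set was above its array's median on 6 arrays only, 4 of XY Ctr and 2 of XY Ctnnb1KO, and passed the filter through them, so that a difference between these groups and the rest had to appear. Its differences are therefore given as a description with no test, and it is left out of the counts of called genes below, which are out of the other 9 genes wherever XY Ctr or XY Ctnnb1KO gonads are set against a group with low Amh. The dim values have no reliable order among themselves.

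The log2 difference of Amh was -3.04 ± 0.38 for XY Sox9KO over XY Ctr gonads and -2.87 ± 0.41 for XY DKO over XY Ctr gonads. The difference of XY DKO from XY Sox9KO gonads was 0.17 ± 0.41, with a 95% interval of -0.66 to 1.001. In the same XY DKO gonads the means of Inhba, Inha and Inhbb were 73.5%, 69.9% and 99.6% of their XY Ctr means. XY Ctnnb1KO gonads differed from XY Ctr gonads with a log2 difference of -0.28 ± 0.38, a difference that was not called.

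Amhr2, the AMH type II receptor gene, read 5573, 5381 and 4183 in XY DKO and 8363, 6810.3, 9326 and 9416 in XY Sox9KO gonads. It read 3712, 3568, 2691 and 3249 in XY Ctnnb1KO and 3208, 3729, 4557 and 2935 in XY Ctr gonads. All Sox9KO arrays lay above all other XY arrays. XX DKO arrays read 7054, 5480.2, 6350.5 and 6039.7 and XX Sox9KO arrays 7279, 8579.5, 6943 and 6814. XX Ctnnb1KO arrays read 4471, 5030.4, 4596 and 5288.5, against 4346, 6694, 6647 and 7499.6 on XX Ctr arrays, whose lowest value lay below all of Ctnnb1KO.

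Amhr2 rose in XY Sox9KO relative to XY Ctr gonads by 1.24 ± 0.14 (limma adjusted p = 3.55e-08), to 135.0% of the XX Ctr mean. It fell in XY DKO relative to XY Sox9KO gonads with a log2 difference of -0.75 ± 0.16 (adjusted p = 0.000641) and was higher in XY DKO than in XY Ctr gonads by 0.49 ± 0.16 (adjusted p = 0.0271). The last call was lost without XY Ctr replicate 1 or 4 or XY DKO replicate 2 or 3 (adjusted p = 0.0799, 0.0962, 0.127 and 0.116). In XX Ctnnb1KO relative to XX Ctr gonads the difference was -0.35 ± 0.14 and was not called (adjusted p = 0.141). The second probe set of Amhr2, whose signals were close to those of the first, did call it, at -0.47 (adjusted p = 0.0112), as did the third at -0.43 (adjusted p = 0.046).

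Control testes and control ovaries, XY Ctr over XX Ctr, differed in 6 of the 9 genes beside Amh, where 37.8% (18% higher, 19.8% lower) of all genes tested were called. Inhba (3.42 ± 0.15), Inha (2.31 ± 0.12), Inhbb (1.15 ± 0.13) and Acvr1b were higher in XY Ctr. Fst (-5.26 ± 0.13) and Amhr2 (-0.79 ± 0.14) were lower, with limma adjusted p-values of 3.49e-24 and 5.21e-05. The second probe set of Inhbb gave 0.38, which was not called (adjusted p = 0.109).

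Loss of Sox9 in XY gonads, XY Sox9KO over XY Ctr, called 5 of the 9 genes beside Amh against a background of 38.7% (22.7% higher, 16% lower): Fst and Amhr2 rose, and Inhba, Inha and Inhbb fell. Set against the control ovary, XY Sox9KO over XX Ctr called 0 of the 10 genes, against 0.628% (0.442% higher, 0.187% lower) of all genes. The nearest to a call was Acvr1b at 0.39 ± 0.11 (adjusted p = 0.0591), and without XY Sox9KO replicate 2 it was called at 0.43 (adjusted p = 0.0478). The 95% intervals of the differences from XX Ctr were -0.61 to -0.01 for Inhba, -0.02 to 0.47 for Inha, -0.07 to 0.45 for Inhbb and 0.15 to 0.74 for Amhr2. In XX gonads, Sox9KO over Ctr called 0 of the 10 genes and 0% of all genes with limma, while 537 of 11777 genes had an unadjusted p under 0.05. There the 95% intervals were -0.15 to 0.36 for Fst and -0.17 to 0.42 for Inhba.

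Loss of Ctnnb1 called 4 of the 10 genes in XX gonads, XX Ctnnb1KO over XX Ctr, where 10.1% (4.81% higher, 5.32% lower) of all genes were called: Inhba, Inha and Inhbb rose and Fst fell. Without the array that lacked Xist, the limma differences were 1.85 for Inhba, 1.09 for Inha, 0.66 for Inhbb and -3.67 for Fst, and all 4 were called (adjusted p of Inhbb 0.00147). The same genes were called in the same directions in XX DKO over XX Sox9KO (4 of 10, background 13.5%, 7.36% higher and 6.16% lower) and in XX DKO over XX Ctr (4 of 10, background 12.9%, 7.29% higher and 5.61% lower). The last of these shares its XX Ctr arrays with the first, and its values were 1.78 ± 0.15 for Inhba, 1.17 ± 0.12 for Inha, 0.75 ± 0.13 for Inhbb and -3.65 ± 0.13 for Fst. There the second probe set of Inhbb gave 0.26, which was not called (adjusted p = 0.393). XX DKO over XX Ctnnb1KO called 0 of 10 and 0% of all genes with limma, although 965 genes had unadjusted p-values below 0.05, and it called 0 of 10 without the array that lacked Xist as well.

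In XY gonads that kept Sox9, XY Ctnnb1KO over XY Ctr called 0 of the 10 genes, against 0.0679% (0.00849% higher, 0.0594% lower) of all genes. With limma 8 genes were called in all and 473 had an unadjusted p under 0.05. Fst differed by 0.35 ± 0.13, with a 95% interval of 0.09 to 0.61. For Inhba the interval was -0.36 to 0.24 and for Inha -0.01 to 0.48. The effect of Ctnnb1 loss in XY minus that in XX gonads, with Sox9 present in both, was called for 4 of the 10 genes (background 4.19%, 2.45% higher and 1.75% lower). It was 4.08 ± 0.18 for Fst, -1.93 ± 0.21 for Inhba, -0.86 ± 0.18 for Inhbb and -0.83 ± 0.17 for Inha (limma adjusted p = 2.31e-16, 1.6e-07, 0.003 and 0.00242). Without the array that lacked Xist these were 4.02, -1.92, -0.84 and -0.85, and all 4 were called. The second probe set of Inhbb gave -0.46, which was not called (adjusted p = 0.476).

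In XY gonads without Sox9, loss of Ctnnb1 (XY DKO over XY Sox9KO) called 5 of the 10 genes, against a background of 21.8% (11.1% higher, 10.8% lower). Inhba, Inha and Inhbb were higher in XY DKO, by 9.81-, 2.97- and 1.94-fold, and Fst and Amhr2 were lower. The effect of Ctnnb1 loss in XY gonads without Sox9 minus that in XY gonads with Sox9 was called for 4 of the 10 genes (background 9.75%, 5.27% higher and 4.47% lower). It came to 3.36 ± 0.21 for Inhba, 1.33 ± 0.18 for Inha, 1.13 ± 0.19 for Inhbb and -3.67 ± 0.18 for Fst (limma adjusted p = 2.06e-12, 3.62e-06, 8.75e-05 and 6.54e-15). For Amhr2 it was -0.63 ± 0.21 and was not called (adjusted p = 0.0574), but it was called in 5 of 24 alternatives, among them quantile normalization (adjusted p = 0.0303) and the 3rd probe set (-0.79; adjusted p = 0.0115). The others left out XY Ctr replicate 3, XY Ctnnb1KO replicate 3 or XY Sox9KO replicate 2 (adjusted p = 0.0191, 0.0279 and 0.0234). For this difference of effects the second probe set of Inhbb gave 0.72, which was not called (adjusted p = 0.103).

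**Figure D3:**
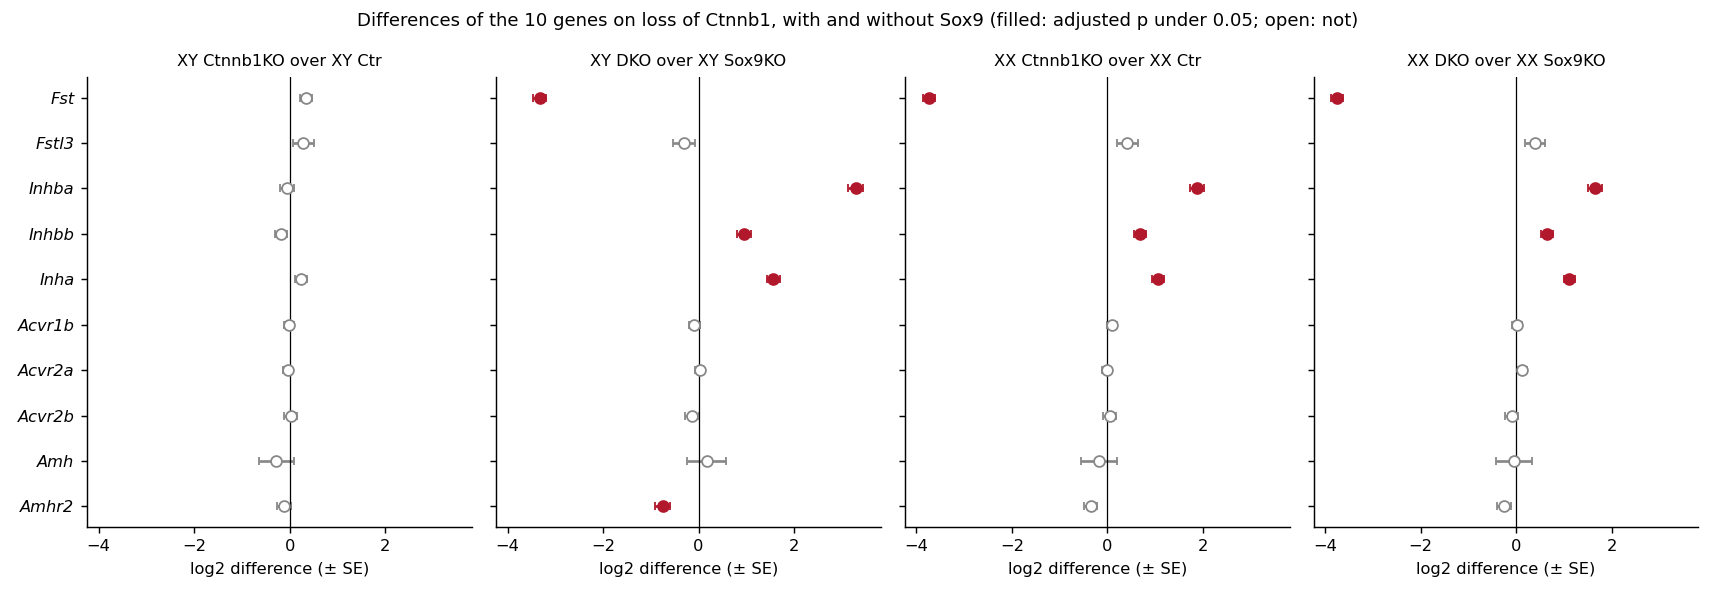
Log2 difference of signal + 16 (horizontal axis) for each of the 10 genes (vertical axis) on loss of Ctnnb1, from left to right in XY gonads with Sox9, XY gonads without Sox9, XX gonads with Sox9 and XX gonads without Sox9. Points are limma estimates, bars are ± 1 SE and filled points were called; Fst is at -3.32 ± 0.14 in XY gonads without Sox9 and at 0.35 ± 0.13, open, in XY gonads with Sox9.

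The loss of both genes in XY gonads, XY DKO over XY Ctr, called 3 of the 9 genes beside Amh against 17.2% (9.62% higher, 7.61% lower) of all genes. Fst and Amhr2 were higher and Inha was lower. Inhba and Inhbb were not called, as given above. Compared with XY Ctnnb1KO gonads, which share their loss of Ctnnb1, XY DKO gonads called 4 of the 9 genes beside Amh (background 14%, 7.66% higher and 6.33% lower): Fst at 1.62 ± 0.14, Amhr2 at 0.61 ± 0.16, Inha at -0.75 ± 0.13 and Fstl3. Without XY DKO replicate 2 Amhr2 was not called, at 0.53 (adjusted p = 0.0525), and Fstl3 was lost as well. The comparisons of XY DKO with XY Ctr, XY Ctnnb1KO and XY Sox9KO gonads use the same XY DKO arrays.

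**Figure D4:**
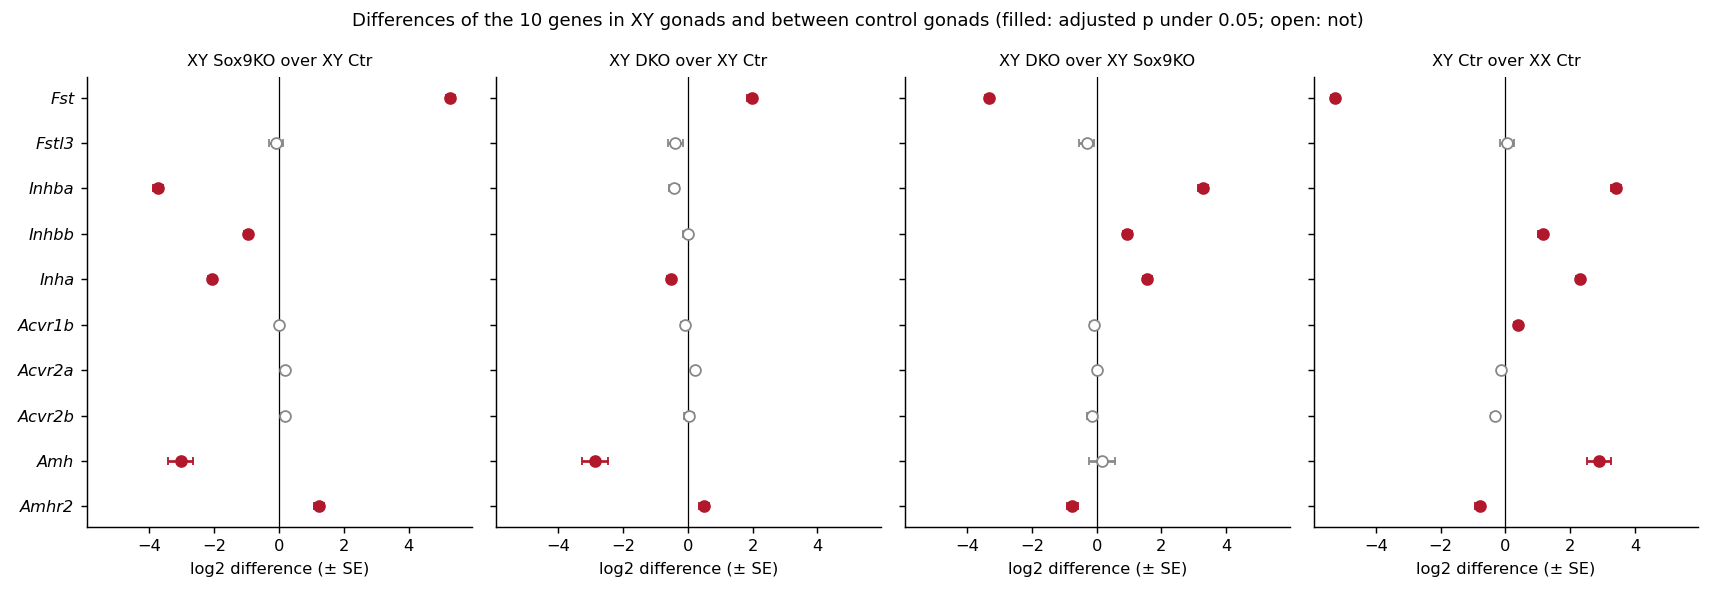
Log2 difference of signal + 16 (horizontal axis) for each of the 10 genes (vertical axis) in 4 comparisons, from left to right XY Sox9KO over XY Ctr, XY DKO over XY Ctr, XY DKO over XY Sox9KO and XY Ctr over XX Ctr. Points are limma estimates, bars are ± 1 SE and filled points were called; Inhbb is at -0.95 ± 0.13 in the first panel and at 0.95 ± 0.14 in the third. The filled points of Amh are a description, since Amh passed the filter through XY Ctr and XY Ctnnb1KO arrays.

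With both genes lost, XY and XX gonads still differed in 3 of the 10 genes, XY DKO over XX DKO, where 5.22% (3.45% higher, 1.77% lower) of all genes were called. Inhba was higher in XY DKO by 1.20 ± 0.16 and Inha by 0.63 ± 0.13 (limma adjusted p = 9.36e-06 and 0.00353), and Fstl3 was lower as given above. Fst differed by 0.36 ± 0.14 and Inhbb by 0.40 ± 0.14, and neither was called (adjusted p = 0.117 and 0.0837). The effect of Ctnnb1 loss in XY minus that in XX gonads, with Sox9 absent in both, was called for 1 of the 10 genes (background 0.943%, 0.722% higher and 0.221% lower), Inhba at 1.64 ± 0.21 (adjusted p = 2.79e-05). For Inha it was 0.45 ± 0.18 and for Inhbb 0.30 ± 0.19, and neither was called.

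Over all 31 arrays the log2 values of Inhba and Inha correlated at 0.96, those of Inhba and Inhbb at 0.91 and those of Inha and Inhbb at 0.90, while Fst and Inhba correlated at -0.95. These are descriptions across 8 groups that stand apart. After removal of group means, which leaves the spread between arrays of 1 group, the values were 0.39, 0.19, 0.42 and -0.07. Amhr2 correlated at -0.85 with Inhba, -0.81 with Inha and -0.60 with Inhbb over all arrays, against -0.23, 0.21 and 0.62 within groups, the last being the highest within-group value of the 45 pairs. With Fst, Amhr2 correlated at 0.8 over all arrays and at -0.28 within groups. The genes most like Fst over the 31 arrays were Calb1, a calcium-binding protein gene (r = 0.986), Insyn2b (0.986), Dcaf12l1 (0.98), the WNT-responsive TNF receptor family gene Tnfrsf19 (0.979) and the calcium channel gene Itpr2 (0.979). Those most like Inhba were Pmaip1, a BCL2 family gene (0.978), the somatostatin receptor gene Sstr4 (0.978), the thrombomodulin gene Thbd (0.975), Stox2 (0.971) and the testosterone-forming enzyme gene Hsd17b3 (0.969). Inhbb was closest to Nppc, the C-type natriuretic peptide gene (0.935), Thbd (0.933), Pdgfra (0.932), Stc1 (0.926) and Ralgps2 (0.922). Amh was closest to Rnf207 (0.928), the ectonucleotidase gene Nt5e (0.926), Dtx4 (0.924), Tesc (0.921) and the sterol synthesis gene Lss (0.909).

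Of 16 signal transducers of the activin and inhibin pathway listed beside the 10 genes, 14 were tested. The shares of all genes called in the comparisons used for this and the following lists were 10.1% in XX Ctnnb1KO over XX Ctr, 38.7% in XY Sox9KO over XY Ctr, 17.2% in XY DKO over XY Ctr and 21.8% in XY DKO over XY Sox9KO. In XX Ctnnb1KO over XX Ctr gonads 3 were higher and 0 lower, with a list median of 0.06 against 0.00 over all genes: Tgfbr3, the betaglycan gene, whose product is an inhibin co-receptor (1.24 ± 0.12), Skil, a SMAD corepressor gene (0.75 ± 0.09), and Acvr1, a type I receptor gene (0.37 ± 0.09). In XY Sox9KO over XY Ctr gonads 4 were higher and 7 lower, with a list median of -0.18 against 0.05 over all genes. The 4 with the lowest adjusted p were all lower: Acvr1 (-0.80 ± 0.09), Tgfbr3 (-0.997 ± 0.12), the Nodal co-receptor gene Tdgf1 (-2.67 ± 0.36) and Skil (-0.51 ± 0.09). In XY DKO over XY Sox9KO gonads 4 of 14 were higher and 0 lower, a share near the 21.8% of all genes called there: Tgfbr3 (1.36 ± 0.13), Skil (0.72 ± 0.10), Acvr1 (0.48 ± 0.10) and Tdgf1 (2.45 ± 0.39). Smad2 and Smad4 were called in none of these 3 comparisons. In XY Ctnnb1KO over XY Ctr gonads 0 of 14 were called, where 0.0679% of all genes were called.

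Of 10 genes of the AMH receptor branch listed, 9 were tested. In XX Ctnnb1KO over XX Ctr gonads 4 were lower and 0 higher, with a list median of -0.34: Bmpr1b, a BMP type I receptor gene (-1.69 ± 0.19), and the BMP target genes Id3 (-0.72 ± 0.12), Id2 (-0.66 ± 0.15) and Id1 (-0.42 ± 0.13). In XY Sox9KO over XY Ctr gonads 5 of 9 were higher and 0 lower, where 22.7% of all genes were higher, with a list median of 0.41, among them Bmpr1b (1.27 ± 0.19), Smad5 (0.41 ± 0.07), Id1 (0.65 ± 0.13) and Id3 (0.56 ± 0.12). In XY DKO over XY Sox9KO gonads 4 were lower and 0 higher, Bmpr1b (-1.76 ± 0.20), Id3 (-0.97 ± 0.13), Id1 (-0.75 ± 0.14) and Smad6 (-0.54 ± 0.17). Bmpr1a and Smad1 were called in none of these 3 comparisons. The medians over all genes were 0.00, 0.05 and -0.02 in these comparisons.

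Of 9 transcription factors known to act on Amh, 8 were tested. They include Sox9 itself, whose fall in Sox9KO and DKO gonads follows from its deletion and is no result about Amh regulators. In XY Sox9KO over XY Ctr gonads Sox9 (-4.70 ± 0.44), its relative Sox8 (-2.80 ± 0.18) and Nr5a1, the SF1 gene (-0.74 ± 0.10), were lower, and 2 were higher, led by Nr0b1, the DAX1 gene (0.79 ± 0.12). In XY DKO over XY Ctr gonads Sox9 (-4.56 ± 0.47), Sox8 (-1.98 ± 0.19) and Nr5a1 (-0.46 ± 0.11) were lower, and 2 were higher, led by Wt1 (0.54 ± 0.13). Gata4 was called in neither. Between XY DKO and XY Sox9KO gonads Zfpm2, a GATA4 cofactor gene (0.63 ± 0.15), and Sox8 (0.82 ± 0.19) were higher in XY DKO and Nr0b1 was lower (-0.42 ± 0.13). In XY Ctnnb1KO over XY Ctr gonads 0 of 8 were called, again where 0.0679% of all genes were called.

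All 8 ovarian signals and factors known to act on Fst were tested, 5 of which also stand in the list of pregranulosa markers used below. In XX Ctnnb1KO over XX Ctr gonads 5 were lower and 1 higher, with a list median of -0.62: Wnt4 (-1.20 ± 0.11), Bmp2 (-0.98 ± 0.14) and the granulosa transcription factor gene Foxl2 (-0.87 ± 0.15) were among those that fell, and the WNT agonist gene Rspo1 rose (0.71 ± 0.10). In XY Sox9KO over XY Ctr gonads 6 were higher and 0 lower, with a list median of 1.74 against 0.05 over all genes, led by Foxl2 (4.53 ± 0.15), Runx1 (3.19 ± 0.15), Bmp2 (2.33 ± 0.14) and Rspo1 (1.92 ± 0.10). In XY DKO over XY Ctr gonads 4 were higher and 0 lower, Foxl2 (3.06 ± 0.17), Rspo1 (2.55 ± 0.11), Runx1 (1.97 ± 0.16) and Bmp2 (0.81 ± 0.15), while Wnt4 differed by 0.09 ± 0.12 and was not called. Foxl2 signal averaged 542.2 ± 81.3 in XY DKO gonads (SD, n = 3), against 50.9 ± 9.3 in XY Ctr gonads (SD, n = 4), while Fst signal averaged 307 ± 32.2 in XY DKO and 66.4 ± 8.4 in XY Ctr gonads.

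Of 9 other ligands of the TGF-beta family listed, 8 were on the array and 3, Tgfb1, Tgfb2 and Tgfb3, passed the filter. In XY Sox9KO over XY Ctr gonads Tgfb1 (-0.80 ± 0.23) and Tgfb2 (-0.70 ± 0.10) were lower.

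Markers of the cell types of the gonad were set beside these values. Summed signal of 12 Sertoli cell markers, 11 of which were tested, was 15602 to 17177 in XY DKO and 11951 to 15524 in XY Sox9KO gonads, against 42341 to 48349 in XY Ctr gonads. In XX gonads it was 9980 to 13734 in Ctnnb1KO and 9567 to 11904 in Ctr, which overlap. In XY DKO over XY Ctr gonads 10 of the 11 Sertoli markers were lower and 0 higher. There Inhbb, Inhba and Inha were at 99.6%, 73.5% and 69.9% of their XY Ctr means. Inha was called lower, and Inhbb and Inhba were not called. Of these markers, 6 were higher and 1 lower in XY DKO over XY Sox9KO gonads, with a list median of 1.52. In XX Ctnnb1KO over XX Ctr gonads 5 were higher and 1 lower, with a list median of 0.43. The Sertoli ligand gene Dhh, an example chosen after its values were seen, read 435.8 ± 40.2 in XY DKO (SD, n = 3) and 36.3 ± 10.7 in XY Sox9KO gonads (SD, n = 4). Dhh does not stand for the whole list.

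Fetal Leydig cell markers, of which 4 of 6 listed were on the array, summed to 12099 to 15674 in XY DKO and 1948 to 2426 in XY Sox9KO gonads, against 32849 to 37935 in XY Ctr gonads. All 4 were higher in XY DKO than in XY Sox9KO gonads. Their sums were 1476 to 3172 in XX Ctnnb1KO and 1407 to 2006 in XX Ctr gonads, where 3 were higher and 1 lower. The steroidogenic enzyme gene Cyp11a1, also chosen after its values were seen, read 244.7 ± 163.0 in XX Ctnnb1KO gonads, against 31.2 ± 18.6 in XX Ctr gonads (SD, n = 4 each). Cyp11a1 does not stand for the whole list either, since 1 marker was lower there and the sums overlapped. Interstitial markers, 6 tested of 8 listed, summed to 19886 to 20177 in XY DKO and 12109 to 13276 in XY Sox9KO gonads, against 25409 to 27796 in XY Ctr gonads.

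Pregranulosa markers, all 11 tested, summed to 9954 to 11655 in XY DKO and 14834 to 16476 in XY Sox9KO gonads, against 5216 to 5943 in XY Ctr gonads. Of the 11, 9 were higher and 1 lower in XY Sox9KO over XY Ctr gonads. In XX gonads the sums were 10983 to 12689 in Ctnnb1KO and 14471 to 16288 in Ctr, with 8 markers lower and 1 higher, while Fst was at 7.08% of its XX Ctr mean. Macrophage and leukocyte markers, all 8 tested, summed to 5684 to 7798 in XY DKO gonads, against 2817 to 3685 in XY Ctr gonads. They summed to 5265 to 6533 in XX DKO and 4220 to 6308 in XX Ctnnb1KO, against 2523 to 4221 in XX Ctr gonads. No marker in these lists was listed at 0, the lowest single signals being 9.6 for Sertoli, 17.8 for pregranulosa, 4.4 for Leydig, 7.0 for interstitial and 43.4 for macrophage markers. The part of these cell types in the changes of the 10 genes was not tested.

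Other cell types were checked in the same way in XY DKO against XY Ctr and XX Ctnnb1KO against XX Ctr gonads. Germ cell markers, 8 tested, summed to 11178 to 25464 in XY DKO and 14348 to 18230 in XY Ctr gonads, and to 20680 to 23928 in XX Ctnnb1KO and 14295 to 22226 in XX Ctr gonads. Endothelial markers, 6 tested, summed to 3611 to 3849 in XY DKO and 3882 to 4353 in XY Ctr gonads, and to 3192 to 3991 in XX Ctnnb1KO and 3314 to 3999 in XX Ctr gonads. Peritubular myoid and smooth muscle markers, 4 tested of 5, had 2 lower in XY DKO over XY Ctr and 2 higher in XX Ctnnb1KO over XX Ctr gonads. Mesonephric markers, 4 of 5 measured and 3 tested, summed to 1668 to 2104 in XY DKO and 1371 to 1696 in XY Ctr gonads. Their sums were 1244 to 1797 in XX Ctnnb1KO gonads, against 2554 to 3841 in XX Ctr gonads, where 1 was higher and 2 were lower. Adrenal cortex markers, 4 tested of 5, had 2 lower in XY DKO over XY Ctr and 1 higher in XX Ctnnb1KO over XX Ctr gonads.

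**Figure D5:**
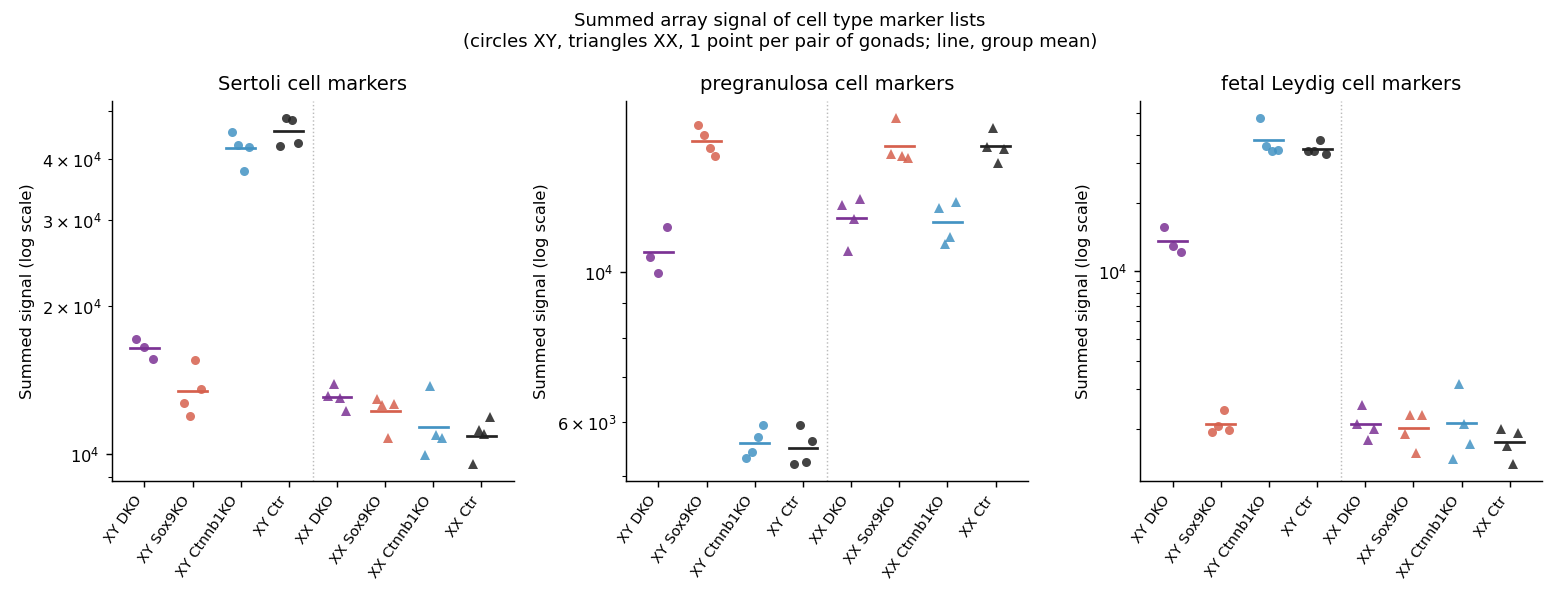
Summed signal of Sertoli cell, pregranulosa cell and fetal Leydig cell markers on each array (vertical axes, log scale, arbitrary linear signal units), by group on the horizontal axis, XY groups left of XX groups. Points are pairs of gonads and lines group means; Leydig sums of XY DKO gonads, 12099 to 15674, lie below those of XY Ctr gonads, 32849 to 37935, and above those of all XX groups.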

How the data were processed

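Expression was measured in 31 pairs of gonads, 1 array each, grouped by sample title and genotype. Per the labels' protocols, 40 ng of total RNA was amplified and labelled with biotin. The authors deposited 1 intensity value for each probe set on a linear scale. MAS5 is named in the submitters' processing notes, with version, settings, detection calls and genome build not given in the sources used here. On every array the trimmed mean is 500.0. Precision is set by how many arrays a group has.

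Of 45101 probe sets, 64 controls were left out. The platform annotation gives 34945 probe sets 1 symbol, 932 several and 9160 none. Entrez identifiers matched 34741 of them to RefSeq, which changed 0 symbols. The strongest probe set stood for a gene, values were log2(signal + 16), and 11777 of 18193 genes passed the filter of being above their array's median on at least 3 arrays. One limma fit (version 3.58.1, R 4.3.3) of 8 group means used all arrays, with eBayes, a trend and 23 residual degrees of freedom. Separate embryos are the replicates, since each pair of gonads was 1 biological replicate per the labels, and arrays of 1 group correlated at 0.962 to 0.987.

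The 10 genes, the lists and the tests were chosen with earlier results of these data known. Named are the 10 genes, Sox9 and Ctnnb1, in each pathway list and comparison up to 4 genes of lowest adjusted p, others that were not called, 2 marker examples, and the 5 genes of highest correlation to Fst, Amh, Inhbb and Inhba. The alternatives tried were no filter, pseudocounts of 1 and 64, quantile normalization, the next brightest probe sets, a fit of a comparison's own arrays alone, the replicate number as a block, eBayes without the trend and leaving out each array. Same-numbered arrays did not deviate together from their group means (median correlation -0.013 over 105 pairs), so the numbers were not taken as pairs. Endothelial, germ cell, myoid, mesonephric and adrenal marker lists were also computed.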

Additional observations from a re-analysis of the deposited data

Results flagged for a closer look

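Fst on XX Sox9KO replicate 3 had a signal of 2927, apart from the other 3 arrays of its group by most of the group's range. Amh stood apart in the same way on 3 arrays, at 11.0 on XX Ctnnb1KO replicate 3, 79.3 on XX Sox9KO replicate 4 and 54.4 on XX DKO replicate 3, all below the array medians. In all, 70 sets of 4 values were looked at, 1 for each gene in each group of 4 arrays. Chance alone sets a value apart in about 1 in 20.

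The effect of Ctnnb1 loss differed between XY and XX gonads that kept Sox9, by the test of the difference itself, for Fst (XY minus XX, 4.08), Inha (-0.83), Inhba (-1.93) and Inhbb (-0.86). In gonads without Sox9 it differed for Inhba, at 1.64. With Sox9 present, the second probe set of Inhbb gave -0.46, which was not called.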

How the results depend on the processing

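Counts here are out of all 10 genes, Amh included. Over 2868 recomputed values of the 160 gene and comparison results, 0 of the 51 called results changed sign. Reversals were counted for called results only. Some uncalled results did change sign, such as Fst of XY DKO over XX DKO (0.36, at the lowest -0.22). Of 51 called results 41 kept their call in every alternative run, and of 109 uncalled results 102 stayed uncalled. With the second probe set, for which Inhba and Acvr1b gave no value because theirs fail the filter, the genes called fell to 2 in XX DKO over XX Ctr, 2 in XX DKO over XX Sox9KO, 4 in XY Ctr over XX Ctr, 2 and 0 for Ctnnb1 loss by karyotype with and without Sox9, and 2 for Ctnnb1 by Sox9 loss in XY gonads. In these comparisons the dimmer Inhbb probe set was not called and Inhba was not tested. Leaving out 1 array each gave 0 to 1 genes in XY Sox9KO over XX Ctr, 3 to 5 in XY DKO over XY Ctnnb1KO, 3 to 4 in XY DKO over XY Ctr and 2 to 4 in XY DKO over XX DKO. Inhba of XY DKO over XY Ctr was called with a pseudocount of 64 (adjusted p = 0.0381), with only the arrays of the comparison (0.0114) and without XY Ctr replicate 4 (0.0428). With a replicate block, for which the numbers did not pair the arrays (8 of 31 arrays correlated best with their own number), the calls of Fstl3 in XY DKO over XY Ctnnb1KO and over XX DKO were lost (adjusted p = 0.0708 and 0.0542) and no other call of the 10 genes changed. The cause of these changes was not tested.

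Limits: 3 or 4 arrays per group bound the precision, and a dim gene such as Amh has understated differences. Quantile normalization moved no comparison's median of all genes by over 0.1. Over all genes, the count called in XY Sox9KO over XX Ctr was 74, against 7 with only the arrays of the comparison, 30 with no filter, 38 without the trend and 113 with quantile normalization, and 8 to 228 leaving out 1 array each. With only the arrays of the comparison it was 179 in place of 615 in XY DKO over XX DKO, 1705 in place of 2572 in XY DKO over XY Sox9KO, and 53 in place of 111 for Ctnnb1 loss by karyotype without Sox9. Leaving out 1 array each gave 349 to 660, 1916 to 2834 and 62 to 168 in these, and 5 to 10 in place of 8 in XY Ctnnb1KO over XY Ctr.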
